A study of Mus musculus with 3 samples.

Results

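Chemokine ligands were read across the cells of the adult mouse lacrimal gland (LG), the exocrine gland that makes the watery part of tears. Members were the rows of the feature list whose symbol begins with Ccl, Cxcl, Xcl or Cx3cl followed by a number. These were 44 of 32285 rows, and 33 of them held at least 1 unique molecular identifier (UMI, a counted transcript) in the cells kept. The rule used names and no measured value. Rows with 0 UMIs were 11 in number: further copies of Ccl19, Ccl21a and Ccl27a, both copies each of Ccl21b and Ccl21c, and Ccl26, Ccl27b and Cxcl15.

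Single-cell RNA-seq (10x Genomics, 3' ends) had been run on dissociated glands of C57BL/6J mice aged 2 months, in 1 female library and 2 male libraries, each made from the pooled glands of 3 mice with no treatment. The female library was made at another core facility and on another day than the male libraries, and the part of each of these in a difference cannot be told apart from that of sex. Cells kept after the filters and the removal of doublets numbered 7652 for the female pool, 5295 for male library 1 and 5397 for male library 2. They held 55390678, 37641576 and 41269825 UMIs. Sets of 3 values below follow this order. Kept barcodes shared by a pair of libraries numbered 8 to 13. Xist had 21688 UMIs in the female library and 0 and 2 in the male libraries.

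Chemokines are small secreted proteins that direct the movement of white blood cells through G protein-coupled receptors. Names follow the spacing of the first cysteines (CC, CXC, XC and CX3C). Some are made constantly and place cells within a tissue, and others are made on demand by cells that sense injury or microbes, in part through the transcription factor NF-kB or through interferon. Atypical receptors (Ackr genes) bind and remove chemokines without the usual signal. In the LG, a mucosal gland, chemokines are of interest because antibody-secreting cells and T cells lodge around its epithelium.

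Cells were grouped into 6 lineages and, within the epithelium, into acinar, duct, Ltf+ (lactoferrin-positive) and myoepithelial (MEC) cells. A further epithelial cluster of 585 cells (161, 198 and 226) was given no class. It counted in the epithelial lineage but was left out of all comparisons among epithelial classes. No chemokine ligand or receptor gene had been among the features used to cluster the cells. Some receptor genes were, however, among the markers used to name the clusters. Members had 12 loci on chromosome 11 and 8 on chromosome 5, among them the neighbouring Cxcl1, Cxcl2 and Cxcl3. The promoters of 3 members of chromosome 5 that differed in source among lineages are shown because they hold the motifs of the inducible pathways. These are the 300 bases from 250 before to 50 after the transcription start (RefSeq, GRCm38.p6), printed 5′ to 3′ in the direction of the gene. Capitals mark matches, on either strand, to an NF-kB motif (GGGA, then NNNN, then CC) or to the interferon motif ISRE (GAAA, then NN, then GAAA). Overlapping matches run together.
Cxcl1, chr5:90890995-90891294, plus strand: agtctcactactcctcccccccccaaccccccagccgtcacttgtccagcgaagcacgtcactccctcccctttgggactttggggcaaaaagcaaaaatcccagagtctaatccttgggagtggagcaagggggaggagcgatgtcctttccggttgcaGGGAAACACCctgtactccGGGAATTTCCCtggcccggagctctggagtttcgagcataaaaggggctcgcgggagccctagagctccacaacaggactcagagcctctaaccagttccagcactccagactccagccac
Cxcl2, chr5:90903649-90903948, plus strand: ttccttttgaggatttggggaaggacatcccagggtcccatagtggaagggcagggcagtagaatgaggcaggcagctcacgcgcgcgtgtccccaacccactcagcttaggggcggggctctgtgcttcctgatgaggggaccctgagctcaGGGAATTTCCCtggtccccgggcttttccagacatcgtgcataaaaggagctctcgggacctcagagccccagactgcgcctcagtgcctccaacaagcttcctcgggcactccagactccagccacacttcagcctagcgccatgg
Cxcl10, chr5:92348840-92349139, minus strand: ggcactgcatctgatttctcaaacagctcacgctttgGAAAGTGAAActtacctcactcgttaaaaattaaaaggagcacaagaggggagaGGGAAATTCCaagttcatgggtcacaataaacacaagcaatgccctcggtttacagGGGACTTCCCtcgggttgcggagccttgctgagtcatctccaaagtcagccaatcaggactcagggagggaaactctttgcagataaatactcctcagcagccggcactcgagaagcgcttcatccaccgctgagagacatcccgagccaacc
The NF-kB letters were found in 13 of the 27 member promoters matched, from 11 of 24 genes, and in 20.7% of 32851 promoters of all genes. ISRE letters were found in 3 of the 27, those of Cxcl10, Ccl19 and Cxcl14, and in 3.44% of all promoters. A match is a description of the letters and not a bound site.

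**Figure D1:**
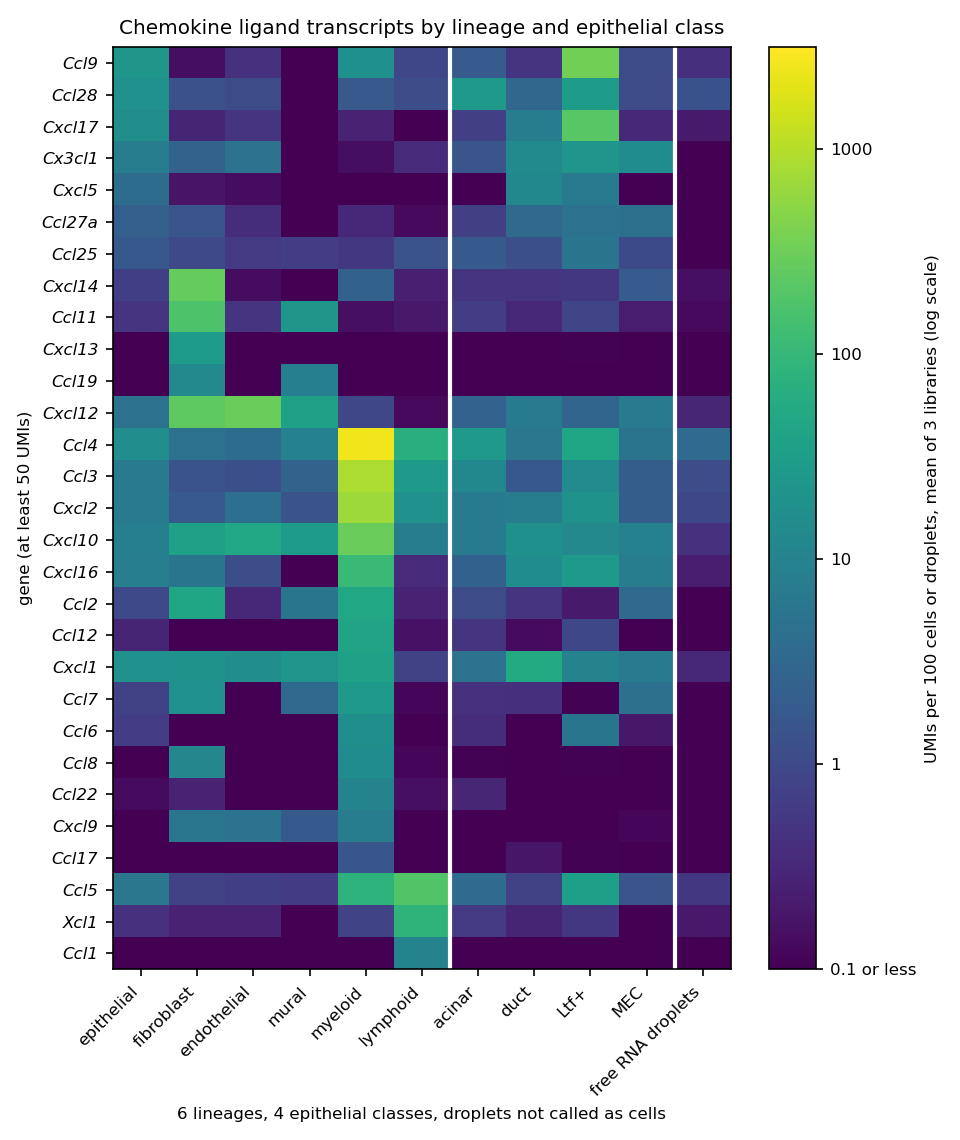
Mean UMIs per 100 cells over the 3 libraries (colour, log scale) for the 29 chemokine ligands with at least 50 UMIs, in 6 lineages, 4 epithelial classes and droplets not called as cells. Ccl4, Ccl3 and Cxcl2 peak in myeloid cells, Cxcl14, Ccl11, Cxcl13 and Ccl19 in fibroblasts, Xcl1 and Ccl1 in lymphoid cells, and Ccl9 and Cxcl17 in Ltf+ cells.

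For each lineage, the UMIs of its cells were summed per library and compared with the sum over all other cells of the same library (edgeR's quasi-likelihood test with library as a block, n = 3 libraries, adjusted p under 0.05 over all genes). Of the 33 members, 31 were tested and 30 were called higher in at least 1 lineage. Calls fell in exactly 1 lineage for 21 members and in 2 or more for 9. Myeloid cells had 18 of 31 members called higher, where 20.7% of all genes were. Fibroblasts had 9 of 28, against 18.1% of all genes. Counts were 5 of 30 in epithelial cells (23.6% of all genes), 3 of 28 in endothelial cells (15.6%), 1 of 28 in mural cells (4.50%) and 4 of 28 in lymphoid cells (13.1%). The share in epithelial, endothelial, mural and lymphoid cells was near or below that of all genes, whereas the myeloid and fibroblast shares stood above it. Median log2 fold changes of the members tested were 2.62 in myeloid cells, where that of all genes was -0.24, and -5.42 in epithelial cells, where that of all genes was -0.03.

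Free RNA from broken cells reaches every droplet. Its level was read from barcodes not called as cells. Called barcodes held 40.8%, 34.6% and 43.6% of all UMIs of their libraries. Of 174 pairs of a member with at least 50 UMIs and a lineage, 54 lay above the CPM (UMIs scaled to a common total per library and group) of barcodes with 10 to 100 UMIs in every library, and 65 lay above that of droplets with over 500 and up to 2000 UMIs. Among 116 pairs of a member and an epithelial class, these counts were 25 and 32. Free RNA values below are those of the droplets.

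CC ligands that attract monocytes, macrophages and T cells included the most abundant members. Ccl4 (MIP-1 beta) had 106740 UMIs in all, more than any other member. Myeloid cells held 5267, 1323 and 1138 UMIs of Ccl4 per 100 cells, and lymphoid cells 115, 46 and 48.5. Free RNA droplets held 7.48, 1.75 and 1.79 per 100 droplets, so that the lowest myeloid library was far above the highest droplet value. Myeloid cells were called higher than all other cells (log2 fold change 7.80, SE 0.25, edgeR adjusted p = 1.55e-12). Ccl3 (MIP-1 alpha) had 1830, 453 and 392 UMIs per 100 myeloid cells (log2 fold change 7.75, SE 0.25, edgeR adjusted p = 2.04e-12). The ratio of Ccl4 to Ccl3 UMIs was 2.88, 2.92 and 2.90 in myeloid cells and 3.20, 3.02 and 3.07 in free RNA. Within the myeloid lineage, M1-like macrophages held 7263, 2371 and 2165 UMIs of Ccl4 per 100 cells and Trem2-high macrophages 5782, 1708 and 1338. Monocyte-like cells had 900, 365 and 334 and migratory dendritic-like cells 181, 41.7 and 45. M2-like macrophages had 753, 543 and 458, below monocyte-like cells in the female library and above them in both male libraries.

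Ccl5 (RANTES), which attracts T cells and eosinophils, was called in lymphoid and myeloid cells. Lymphoid cells held 365, 94.2 and 118 UMIs of Ccl5 per 100 cells (log2 fold change 4.39, SE 0.18), and myeloid cells 88.4, 76.6 and 74.7 (log2 fold change 2.62, SE 0.33). Lymphoid cells were the higher in every library. NK-like cells (937, 221 and 210.5 per 100 cells) and cytotoxic T-like cells (852, 221 and 186) stood at like levels, and ILC-like (innate lymphoid) cells held 14 UMIs in all. Migratory dendritic-like cells, 92 in all, reached 1231, 383 and 372 per 100 cells, above both lymphoid subsets in every library. Ccl6 (C10), a ligand of CCR1, had 29.9, 12.8 and 8.52 UMIs per 100 myeloid cells (log2 fold change 5.93, SE 0.35). Monocyte-like cells held 125, 43.3 and 17.1 and M2-like macrophages 86.1, 48.1 and 16.1. The mean log2 ratio of Ccl6 in monocyte-like cells over the rest of the lineage was 2.00 ± 0.39 (SD, n = 3 libraries), which became 1.11 with coarser clusters.

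The ligands of CCR2, the receptor that draws monocytes out of blood, came from myeloid cells and fibroblasts. Ccl2 (MCP-1) had 88.3, 30 and 24.5 UMIs per 100 myeloid cells and 39.8, 43.9 and 48.4 per 100 fibroblasts. The order of these lineages was therefore reversed between the female and the male libraries. Both were called, in myeloid cells (log2 fold change 2.98, SE 0.23) and in fibroblasts (2.65, SE 0.53). Ccl7 (MCP-3) had 26.5, 28.6 and 27.2 in myeloid cells (log2 fold change 3.56, SE 0.23) and 13.4, 20.5 and 23.8 in fibroblasts (1.94, SE 0.32). A cluster of 17 mast-like cells, too few for a ratio, held 1522, 300 and 140 UMIs of Ccl2 and 411, 467 and 900 of Ccl7 per 100 cells, above the myeloid lineage as a whole in every library.

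Within the myeloid lineage, Ccl8 and Ccl12 were led by 1 subset. Ccl8 (MCP-2) had 4.08, 25.3 and 17.1 UMIs per 100 myeloid cells (log2 fold change 3.34, SE 0.63), and 71.5% of those UMIs lay in M2-like macrophages, which were 3.60% of the lineage. These 121 cells held 128, 324 and 329 per 100, a mean log2 ratio of 6.39 ± 0.80 (SD, n = 3 libraries) over other myeloid cells. Fibroblasts held 15.4, 12.3 and 8.47 UMIs of Ccl8 per 100 cells (log2 fold change 2.55, SE 0.37), a call that was lost without the library block. Per cell, fibroblasts stood above myeloid cells in the female library and below them in both male libraries. Ccl12 (MCP-5) had 78.7, 21.3 and 25.6 per 100 myeloid cells (log2 fold change 8.35, SE 0.33), which was 97.9% ± 1.28 (SD, n = 3 libraries) of its UMIs. M2-like macrophages were also higher in Ccl12 and Ccl7 than the rest of the lineage, with mean log2 ratios of 2.01 ± 0.60 and 2.80 ± 0.35 (SD, n = 3 libraries).

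**Figure D2:**
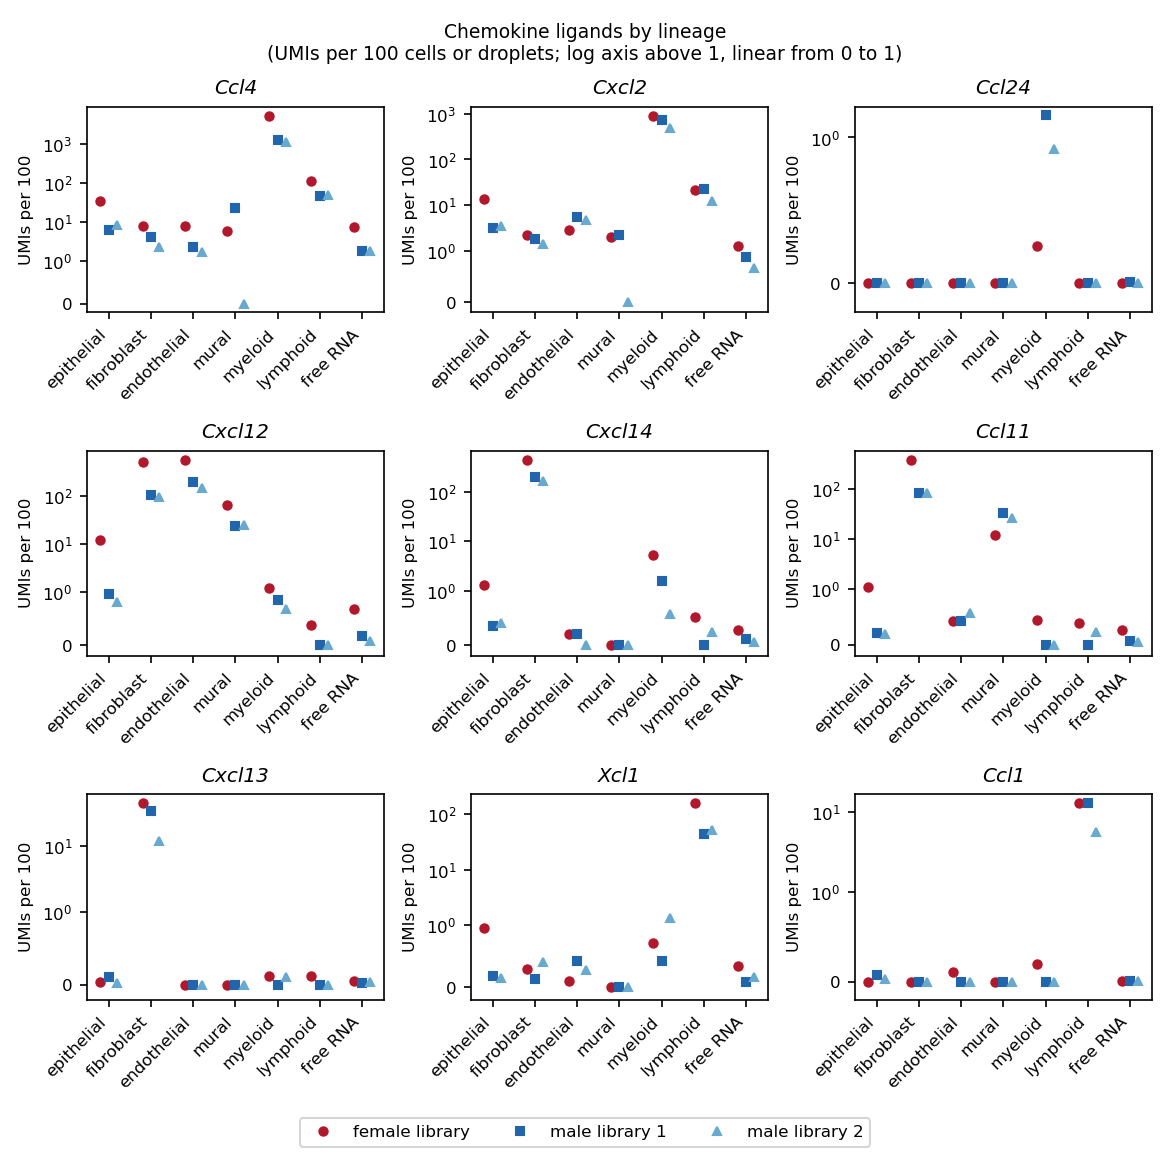
UMIs per 100 cells of 9 chemokine ligands in each library (points) by lineage, with free RNA in UMIs per 100 droplets. The vertical axis is logarithmic above 1 and linear from 0 to 1, and the myeloid points of Ccl4 lie between 1138 and 5267 and the fibroblast points of Cxcl14 between 173 and 459.

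Ligands of CXCR2, the neutrophil receptor, differed in source. Cxcl2 (MIP-2) had 873, 712 and 496 UMIs per 100 myeloid cells (log2 fold change 7.55, SE 0.28, edgeR adjusted p = 6.05e-12). M1-like macrophages held 1142, 1133 and 779 and Trem2-high macrophages 1368, 1275 and 952. Cd209a dendritic-like cells held 0, 22.9 and 33, below both in every library. Among lymphoid cells, ILC-like cells held 72.7% of the Cxcl2 UMIs, at 48.7, 48.5 and 47.2 per 100 cells. Cxcl3, a close relative, had 27 UMIs in all (log2 fold change 3.78, SE 0.76, in myeloid cells). Cxcl1 (KC) was spread over lineages, with 24.6, 59.9 and 28.9 UMIs per 100 myeloid cells, 33.3, 13.4 and 14.3 in fibroblasts, 15.6, 17.6 and 17.5 in endothelial cells and 32.3, 14.9 and 8.44 in epithelial cells. It was called higher in myeloid cells (log2 fold change 1.92, SE 0.36). Cxcl5 (LIX) was epithelial, at 8.49, 1.90 and 1.13 per 100 cells against at most 0.418 per 100 in any library of another lineage (log2 fold change 4.71, SE 0.61).

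Ligands of CXCR3, a receptor of activated T and NK cells whose ligands respond to interferon, were led by Cxcl10 (IP-10). Myeloid cells held 618, 156 and 128 UMIs of Cxcl10 per 100 cells (log2 fold change 4.45, SE 0.26). Endothelial cells held 35.2, 40.6 and 73.7, and fibroblasts 33, 34.5 and 45.5. Venous-like endothelial cells held 84.9% of the endothelial UMIs of Cxcl10 in 22.6% of the cells, at 163, 126 and 222 per 100 cells, and capillary-like cells held 6.68, 10.7 and 15.5. The mean log2 ratio of venous-like cells over the rest was 3.95 ± 0.45 (SD, n = 3 libraries), and that of Cxcl1 in the same cells was 2.50 ± 0.41. An interferon list of 10 genes had 8 called higher in endothelial cells and 8 in myeloid cells, where 15.6% and 20.7% of all genes were, and its part in the Cxcl10 levels was not tested. Cxcl9 (MIG) had 11.1, 3.47 and 8.40 UMIs per 100 myeloid cells (log2 fold change 2.87, SE 0.35), 13.7, 0.696 and 3.31 in fibroblasts (1.29, SE 0.36) and 4.23, 4.18 and 7.06 in endothelial cells (1.64, SE 0.40). The fibroblast call was lost without the female library. Its fibroblast UMIs were concentrated, with 82.6% of those of the female library in 1 parenchymal-like cluster and all 16 of male library 2 in 1 cell. Trem2-high macrophages held 25.3, 8 and 22.4 per 100 cells, a mean log2 ratio of 1.91 ± 0.41 (SD, n = 3 libraries) over other myeloid cells.

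Cxcl12 (SDF-1), which holds CXCR4-bearing cells in place, had a pair of large sources. Endothelial cells held 574, 202 and 149 UMIs per 100 cells (log2 fold change 3.75, SE 0.25, edgeR adjusted p = 4.22e-17), and fibroblasts 518, 107 and 95.5 (log2 fold change 2.95, SE 0.24, edgeR adjusted p = 8.69e-06). Mural cells had 66, 24.4 and 24.5. Endothelial cells were the higher of the first pair in every library. Capillary-like cells held 88.1% of the endothelial UMIs of Cxcl12, at 882, 305 and 247 per 100 cells, arteriolar-like cells had 404, 94.7 and 90.5, and venous-like cells 48.6, 8.06 and 6.86. Venous-like cells were thus low in Cxcl12 and high in Cxcl10 and Cxcl1 in every library. The mean log2 ratio of Cxcl12 in capillary-like cells was 2.58 ± 0.35 (SD, n = 3 libraries). It was 3.29 when a cluster of 94 cells with leading epithelial genes kept its capillary name, and 1.86 with coarser clusters.

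Fibroblasts held most UMIs of Cxcl14, Ccl11, Cxcl13 and Ccl19. Cxcl14 (BRAK), whose receptor is not settled, had 459, 203 and 173 UMIs per 100 fibroblasts (log2 fold change 8.66, SE 0.36), 98.2% ± 0.341 (SD, n = 3 libraries) of its UMIs. Its level was high in parenchymal-like fibroblasts (597, 233 and 205) and in Pdgfrl Fxyd6-like fibroblasts (736, 440.5 and 589), while the 192 adventitial-like fibroblasts held 2 UMIs. The mean log2 ratio of adventitial-like cells was -7.48 ± 1.5 (SD, n = 3 libraries). Ccl11 (eotaxin-1), which acts on eosinophils through CCR3, had 373, 80.9 and 81 UMIs per 100 fibroblasts (log2 fold change 8.28, SE 0.28). Adventitial-like cells held 303, 52.9 and 59.6 and Pdgfrl Fxyd6-like cells 67.1, 5.41 and 14.8. Cxcl14 and Ccl11 were therefore ordered oppositely in these 2 subsets. Mural cells held 12, 33.3 and 26.4 UMIs of Ccl11 per 100 cells and were not called (0.34, SE 0.44, edgeR adjusted p = 0.686).

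Cxcl13, the B cell attractant of lymphoid follicles, had 44.9, 34.8 and 11.8 UMIs per 100 fibroblasts (log2 fold change 9.25, SE 0.30, edgeR adjusted p = 4.14e-08). A single cluster of 330 fibroblasts held 77.3%, 69.2% and 57.9% of these UMIs. Its leading genes were C4b, Vit, Ism1, C3 and Postn, and it was left unnamed because it did not meet the marker rule of any subset. It had 320.3, 173 and 68.8 UMIs of Cxcl13 per 100 cells. The same cluster held 713, 184 and 138 UMIs of Cxcl12 and 57.1, 27 and 12.5 of Ccl8 per 100 cells. Cxcl13 was not confined to it. A parenchymal-like cluster of 186 cells held 47.9, 58.1 and 66.7 UMIs of Cxcl13 per 100 cells, close to the unnamed cluster in male library 2. Adventitial-like cells held 55.9, 67.65 and 0 per 100. Ccl19, a ligand of CCR7 that guides dendritic cells and naive T cells, had 14.6, 12.5 and 12.4 UMIs per 100 fibroblasts (log2 fold change 7.42, SE 0.34). Mural cells held 4, 11.1 and 11.3 per 100 and were called (2.17, SE 0.65), but leaving out any 1 library ended the call of Ccl19, with log2 fold changes of 1.49 to 3.05. Another member was called in mural cells without the female library. Ccl19 and Ccl21a have near-identical gene copies. The other copies held 0 UMIs, and how reads that match several copies were treated was not tested, so these levels are uncertain. Ccl21a had 9 UMIs, of which 8 lay in 1 endothelial cell of male library 1 that also held 2 UMIs of Lyve1 and 1 of Mmrn1, markers of lymphatic endothelium, and 0 of Prox1.

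Dendritic and macrophage subsets carried further narrow members. Ccl22 (MDC), a ligand of CCR4, the receptor of T helper 2 and regulatory T cells, had 10.4, 11.6 and 8.40 UMIs per 100 myeloid cells (log2 fold change 6.95, SE 0.38). Migratory dendritic-like cells held 48.8% of these UMIs in 2.73% of the cells, at 594, 111 and 82.5 per 100, and Cd209a dendritic-like cells had 52.6, 20 and 8.70. Ccl17 (TARC), a ligand of the same receptor, had 64 UMIs in all (log2 fold change 5.65, SE 0.58) and stood at 112, 33.3 and 12.5 per 100 migratory dendritic-like cells. Ccl24 (eotaxin-2) had 26 UMIs, all in myeloid cells (log2 fold change 8.27, SE 0.99), of which M2-like macrophages held 4, 8 and 8. Cxcl16, a membrane-bound ligand of CXCR6, had 219.7, 64.4 and 59 per 100 myeloid cells (log2 fold change 5.04, SE 0.23), with 336, 96 and 96.9 in Trem2-high macrophages.

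Lymphoid cells were the main source of Xcl1 and Ccl1. Xcl1 (lymphotactin), whose receptor marks cross-presenting dendritic cells, had 156, 43.6 and 52.9 UMIs per 100 lymphoid cells (log2 fold change 8.85, SE 0.24). NK-like cells held 79.3% of them, at 499, 144 and 139.5 per 100 cells, and cytotoxic T-like cells had 148, 42.3 and 69.7. Ccl1 (TCA-3), a ligand of CCR8, had 172 UMIs in 43 cells. Its level was 12.6, 12.7 and 5.57 per 100 lymphoid cells (log2 fold change 9.13, SE 0.43). The UMIs lay in 26, 9 and 8 cells, and the cell with the most held 25, 17 and 15 of the 108, 39 and 25 UMIs. ILC-like cells held 92, 4 and 6 of the Ccl1 UMIs, and gamma-delta T-like cells held 0, 32 and 17, so this split rests on few cells in the male libraries. Ccl25 (TECK), a ligand of CCR9, was low, at 3.14, 1.04 and 0.973 UMIs per 100 epithelial cells and 2.44, 1.03 and 0.696 per 100 lymphoid cells. It was called in lymphoid cells (log2 fold change 1.41, SE 0.52) and not in epithelial cells (0.34, SE 0.30, edgeR adjusted p = 0.377). The lymphoid call was lost without the female library or without male library 1.

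**Figure D3:**
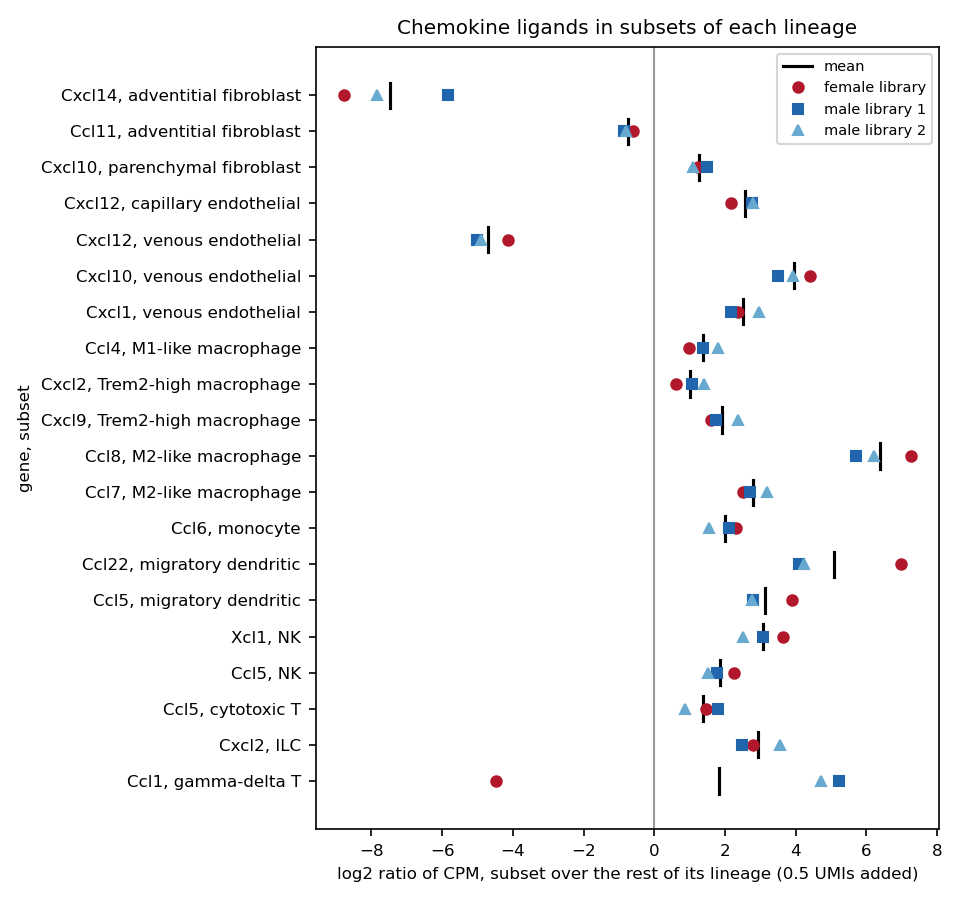
Log2 ratio of CPM in a subset over the rest of its lineage for 20 pairs of chemokine ligand and subset, with each library as a point and the mean marked. Cxcl12 and Cxcl10 lie on opposite sides of 0 in venous-like endothelial cells, and Ccl1 in gamma-delta T-like cells lies on opposite sides in the female and the male libraries.

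Epithelial cells were called for Cxcl17, Cxcl5, Ccl28, Cx3cl1 and Ccl9. Each class was compared with the other named epithelial classes of the same libraries. Members called higher were 3 of 20 in acinar cells (23.8% of all genes), 7 of 17 in duct cells (15.8%), 4 of 17 in Ltf+ cells (5.56%) and 5 of 19 in MECs (14.1%). The acinar share was below that of all genes and the other shares were above. Scaling by total UMIs turned the counts into 0, 12, 11 and 11. Without the female library the Ltf+ count was 8 and the MEC count 8, and without male library 2 the MEC count was 2.

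Among the named epithelial classes, Ltf+ cells had the highest levels of Ccl9 and Cxcl17. Ccl9 (MIP-1 gamma), known as a product of myeloid cells, had 635, 198 and 217 UMIs per 100 Ltf+ cells (log2 fold change 6.89, SE 0.37, edgeR adjusted p = 5.36e-05). Myeloid cells held 22.6, 17.8 and 13.6 per 100, and acinar cells 1.29, 2.53 and 2.05. Single cells were checked for the lymphoid markers Cd3g, Trbc2 and Nkg7 and the myeloid markers Tyrobp and Csf1r. Of the Ccl9 UMIs of Ltf+ cells, 96.6, 99.7 and 98.5 percent lay in cells with no UMI of these genes. Other immune markers were not checked in this way. At the level of lineages, Ccl9 was called higher in both myeloid (1.03, SE 0.26) and epithelial cells (0.99, SE 0.15), the latter turning to -0.80 with total UMIs and to -0.069 with more doublets removed. Cxcl17, a mucosal chemokine of epithelia, had 409, 119 and 127 UMIs per 100 Ltf+ cells (log2 fold change 5.85, SE 0.55, edgeR adjusted p = 6.57e-04). Duct cells held 16.6, 5.52 and 1.48 UMIs of Cxcl17 per 100, and acinar cells at most 0.863 in any library. Over lineages Cxcl17 was epithelial (log2 fold change 5.27, SE 0.55). Ccl6 also was called in Ltf+ cells, from 6, 15 and 14 UMIs (log2 fold change 3.87, SE 0.57).

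Ccl5 in Ltf+ cells rested on few cells. Its level was 14.1, 42.1 and 46.6 UMIs per 100 cells (log2 fold change 3.26, SE 0.63, edgeR adjusted p = 0.0144). The UMIs lay in 3, 16 and 12 cells, with 9, 44 and 66 in the cell that held the most. None of these cells held a UMI of Cd3g, Trbc2 or Nkg7, and 1 of the 3 in the female library held Tyrobp or Csf1r. Free RNA held 0.623, 0.411 and 0.590 UMIs of Ccl5 per 100 droplets.

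**Figure D4:**
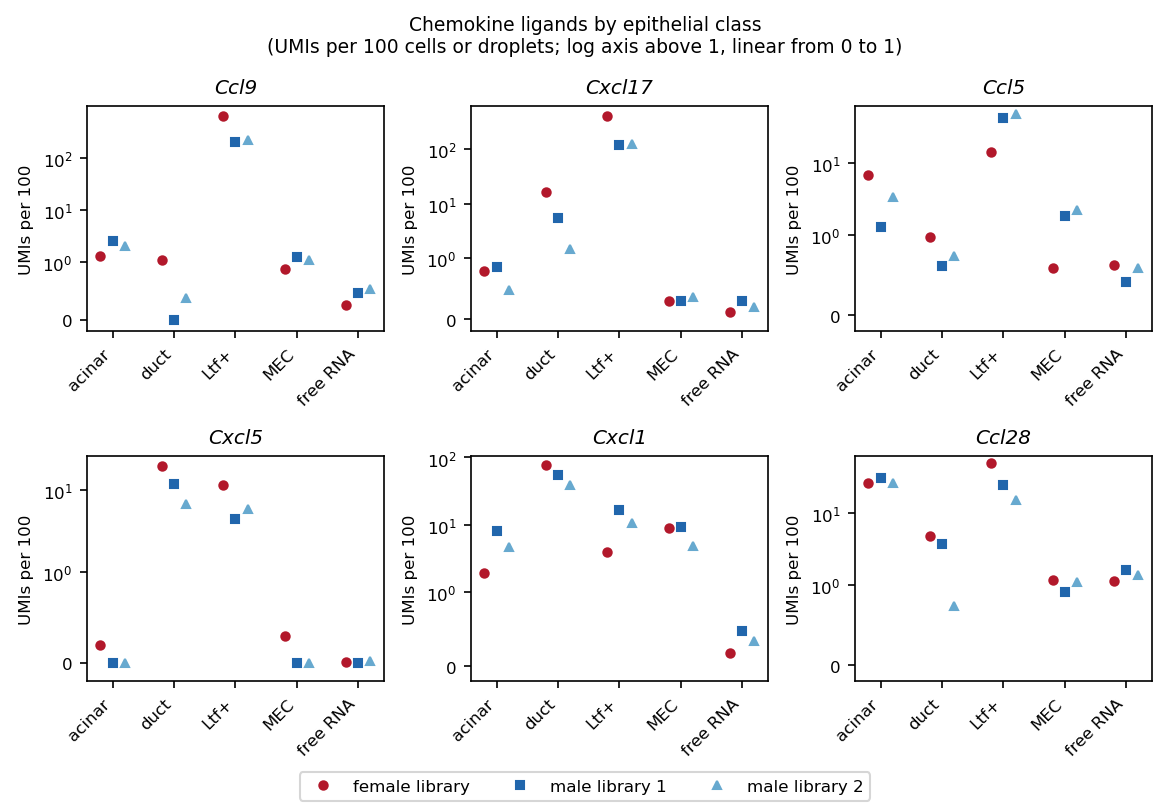
UMIs per 100 cells of 6 chemokine ligands in each library (points) by epithelial class, with free RNA in UMIs per 100 droplets. The vertical axis is logarithmic above 1 and linear from 0 to 1, and the Ltf+ points of Ccl9 lie between 198 and 635.

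Duct cells were called for neutrophil and T cell attractants. Cxcl1 had 76.8, 55.5 and 39.1 UMIs per 100 duct cells against 1.88, 8.01 and 4.57 per 100 acinar cells (log2 fold change 3.88, SE 0.20, edgeR adjusted p = 3.43e-09). Cxcl5 had 19.7, 11.7 and 6.64 per 100 duct cells (log2 fold change 4.64, SE 0.31) and 11.5, 4.43 and 5.75 per 100 Ltf+ cells. Cxcl10 (22.2, 19.3 and 13.7 per 100 duct cells, 2.23, SE 0.48) and Cxcl16 (32, 8.90 and 4.80, 1.83, SE 0.22) were called as well. Of 23 genes of dissociation and stress, 22 were called higher in duct cells, 13 in MECs and 0 in acinar cells, where 15.8%, 14.1% and 23.8% of all genes were. Among lineages, 9 were called higher in myeloid cells (20.7% of all genes), 9 in fibroblasts (18.1%) and 9 in endothelial cells (15.6%). Lymphoid cells had 6, epithelial cells 1 and mural cells 1. In myeloid cells 9 others were called lower. The part of that list in the chemokine levels was not tested. Cx3cl1 (fractalkine), a membrane-bound ligand for macrophages and NK cells, was called in duct cells (26.4, 6.75 and 7.38 per 100, 1.68, SE 0.23) and in MECs (24.2, 8.87 and 12.4, 1.75, SE 0.37). Over lineages, Cx3cl1 was called in epithelial cells (16, 4.16 and 3.51 per 100, 1.19, SE 0.27), turning to -0.59 with total UMIs, and in endothelial cells (8.35, 4.18 and 2.54, 0.81, SE 0.31), a call lost without male library 1.

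Ccl28 (mucosae-associated epithelial chemokine), which draws IgA-secreting cells through CCR10, had 26, 30.4 and 26.4 UMIs per 100 acinar cells and 50, 24.7 and 15.3 per 100 Ltf+ cells. MECs held 1.18, 0.917 and 1.09, and duct cells 4.87, 3.68 and 0.738. The acinar cells were called higher than the other named epithelial classes (log2 fold change 1.80, SE 0.24, edgeR adjusted p = 0.00123), turning to -0.81 with total UMIs. Free RNA held 1.13, 1.61 and 1.38 UMIs of Ccl28 per 100 droplets. By CPM, droplets held 10.3, 15.1 and 17.2, acinar cells 8.99, 16.8 and 16.8 and Ltf+ cells 21.2, 63.5 and 39.6. The acinar CPM was thus close to that of free RNA, and the Ltf+ CPM was above it in every library. Over lineages its epithelial log2 fold change was 2.88 (SE 0.20). Ccl3 and Ccl4 were also called in acinar cells (1.81, SE 0.47, and 1.38, SE 0.32), turning to -0.996 and -1.28 with total UMIs. By CPM, acinar cells held 21.4, 4.49 and 6.38 of Ccl4 against 68.7, 16.4 and 22.2 in free RNA, and 11.2, 1.498 and 2.12 of Ccl3 against 21.5, 5.42 and 7.24. Per cell, acinar Ccl4 was 61.9, 8.13 and 10 UMIs per 100 cells, above the 7.48, 1.75 and 1.79 per 100 droplets. The part of free RNA in these calls was not tested.

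MECs were called for 5 members, which include Cx3cl1 above. The summed fibroblast markers were also higher in MECs, at 735, 738 and 629.8 CPM (totals without tear products and mitochondria), against 82.2, 92.5 and 82.6 in duct cells and 61.5, 39.2 and 31.7 in acinar cells, with 0, 2 and 3 of the 6 markers at 0 in MECs. Their part in the MEC calls was not tested. Ccl7 had 1.77, 6.73 and 5.09 UMIs per 100 MECs (log2 fold change 4.09, SE 0.71). Cxcl14 had 2.36, 1.83 and 1.82 (2.52, SE 0.73), a call lost without either male library. Ccl27a (CTACK), a skin chemokine for CCR10, had 5.90, 4.28 and 3.64 per 100 MECs (2.05, SE 0.62) and 7.69, 2.15 and 0.738 per 100 duct cells (1.40, SE 0.39). The MEC call of Ccl27a was lost without male library 2 and the duct call without male library 1, and its level is uncertain for the same reason as that of Ccl19. Cxcl12 was called in MECs (18.9, 1.83 and 1.82 per 100, 1.21, SE 0.38) and in duct cells (17.6, 2.15 and 1.48, 1.28, SE 0.36). All epithelial cells together held 322, 27 and 26 UMIs of Cxcl12, so the levels in the male libraries rest on few UMIs. Ccl20, the ligand of CCR6, had 26 UMIs in 21 cells and was not tested at the level of lineages.

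The receptors were read from the same fits. Ackr1, Ackr3, Ccr2 and Ccr7 had been among the markers that named clusters of the whole gland. Their calls in endothelial cells, fibroblasts and myeloid cells are therefore partly built in and not independent of the naming. Of 23 receptor genes, 9 of 13 tested were called higher in myeloid cells (20.7% of all genes), 6 of 12 in lymphoid cells (13.1%), 3 of 12 in fibroblasts (18.1%), 1 of 9 in endothelial cells (15.6%), 1 of 9 in mural cells (4.50%) and 0 of 15 in epithelial cells (23.6%). In the epithelium, edgeR called 14 lower, where 3771 of 13387 genes were, and 14 had an unadjusted p under 0.05. Myeloid calls included Cx3cr1 (8.36), Ccr7 (6.89), Ccr1 (6.23), Xcr1 (3.93) and Ccr2 (3.01), on the log2 scale. Lymphoid calls included Cxcr6 (8.40), Ccr8 (7.32), Cxcr3 (4.95) and Ccr2 (4.47). Fibroblast calls were the atypical receptors Ackr2 (7.83), Ackr3 (3.14) and Ackr4 (2.71), 1 of which was still called without the female library. The endothelial call was Ackr1 (6.20), and the mural call was Ackr3 (1.98). The mural call was lost with the DESeq2 Wald test, without the library block, without the female library and without male library 2. Ackr3, a scavenger of Cxcl12, was also called in MECs among epithelial classes (6.89, SE 0.52).

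The female library was set beside both male libraries within 5 lineages, by CPM and with no test, since 1 female library allows none. Of 84 pairs of a member and a lineage with at least 20 UMIs, 19 were at least 2-fold higher in the female library than in both male libraries, or 22.6%, where 29.7% of all gene and lineage pairs were. At least 2-fold lower were 14 pairs, or 16.7%, where 1.31% of all pairs were. When the totals omitted UMIs of tear products and mitochondria, the counts became 5 higher (8.60% of all pairs) and 23 lower (3.96% of all pairs). Pairs past the fold in both scalings were 5 higher and 14 lower. All 5 higher pairs were in epithelial cells: Cxcl12, Cxcl5, Ccl3, Xcl1 and Ccl11. Cxcl12 had 8.44, 0.813 and 0.693 CPM in epithelial cells, with an exact Poisson 95% interval of 7.54 to 9.41 in the female library that covers counting error only. Free RNA held 6.19, 1.58 and 0.919 CPM of Cxcl12. Epithelial Ccl3, Xcl1 and Ccl11 lay below free RNA in every library. Ccl3 had 11.3, 1.69 and 2.42 CPM against 21.5, 5.42 and 7.24 in droplets. Xcl1 had 0.655, 0.150 and 0.133 against 3.21, 0.832 and 2.04, and Ccl11 0.760, 0.181 and 0.160 against 2.42, 0.704 and 0.650. Epithelial Cxcl5 (5.82, 1.60 and 0.959) lay above free RNA (0.125, 0.0160 and 0.269). Duct cells were called for Cxcl5. They were 1027 of 2615 epithelial cells in the female library, and 326 of 2790 and 271 of 3187 in the male libraries. The part of that share in the Cxcl5 difference was not tested. The part of free RNA in the epithelial differences was not tested.

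Among lower pairs, 5 were myeloid, 4 fibroblast, 3 endothelial and 2 epithelial. They include pairs at a low level. Ccl28 had 2.95, 8.76 and 10.5 CPM in fibroblasts and 3.39, 9.67 and 13.1 in myeloid cells. Both lay below the droplet CPM of Ccl28 given above in every library. Epithelial Ccl20 rested on 4, 13 and 8 UMIs. Free RNA was not set beside the other lower pairs, apart from epithelial Ccl5. Ccl8 in myeloid cells had 10.7, 137 and 97.9 CPM, with an interval of 8.21 to 13.7 in the female library. Ccl24 had 0.679, 7.97 and 5.25, Ccl7 69.4, 155 and 155, and Cxcl1 64.5, 324 and 165 CPM in the same lineage. M2-like macrophages, which held most of the myeloid UMIs of Ccl8, were 36 of 1545 myeloid cells in the female library, 54 of 950 in male library 1 and 31 of 869 in male library 2. Within those cells the female level of Ccl8 was still the lowest, as given above. In fibroblasts, Cxcl10 had 102, 217 and 290 CPM, Ccl2 123, 276 and 308, and Ccl7 41.6, 129 and 152. In endothelial cells, Cxcl10 had 124, 270 and 533, Cxcl1 55.3, 117 and 127, and Cxcl2 10.1, 36.2 and 34.7. Myeloid Ccl4, Ccl3 and Cxcl10 went the other way, with female CPM 1.93, 1.96 and 1.92 times that of male library 1 and 2.13, 2.15 and 2.22 times that of male library 2. When the totals omitted UMIs of tear products and mitochondria, these became 1.36, 1.38 and 1.355 times male library 1. Against male library 2 they became 1.40, 1.41 and 1.465 times. None of these pairs passed the 2-fold limit against both male libraries in either scaling. In epithelial cells, Ccl5 had 2.44, 6.05 and 6.53 CPM. That CPM lay below free RNA in the female library and male library 2, and above it in male library 1. The part of free RNA in the Ccl5 difference was not tested. Ltf+ cells were called for Ccl5. They were 78 of 2615 epithelial cells in the female library, and 316 of 2790 and 313 of 3187 in the male libraries. The part of that share in the Ccl5 difference was not tested.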

How the data were processed

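The authors deposited UMI count matrices of 3 libraries made with Cell Ranger 6.1.2 against mm10, per the labels, before their own removal of ambient RNA, doublets and poor cells. Cells with over 500 UMIs, over 200 genes and under 15% mitochondrial UMIs were kept, and doublets were removed by Scrublet score (scanpy 1.11.5) at the share expected from 0.8% for each 1000 barcodes. Cells were integrated and clustered without chemokine ligand or receptor genes (Seurat 5.3.0, sctransform 0.4.2) at resolution 1, and named from marker lists. These lists held no chemokine ligand, but did hold the receptor genes Ackr1, Ackr3, Ccr2, Ccr7 and Xcr1. Subset clusters were left unnamed if their 10 leading genes held no marker of the subset and at least 3 of epithelial or immunoglobulin origin. Markers of the subset could still be raised in such clusters. That rule was set after the clusters were seen, and its number was lowered from 4 to 3 after its effect on them was known. Named subsets carry the ending "-like" because no annotation of cells was used.

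Counts were summed per library and group. Each lineage was compared with all other cells of named lineages of the same libraries. Each epithelial class was compared with the other named epithelial classes. Tests used edgeR 4.0.16 (R 4.3.3) with TMM scaling, filterByExpr, the quasi-likelihood test and library as a block. The p-values were adjusted over all genes by Benjamini-Hochberg. The block pairs groups taken from the same library. The pools are the replicates, so p-values measure the spread between 3 pools. Subset ratios used CPM with 0.5 UMIs added, needed 10 cells per library and had no test. DESeq2 1.42.0 was an alternative. Median UMIs per kept cell were 3252, 1884 and 1788, and 646, 287 and 315 doublets were removed. Every member with at least 1 UMI was to be named, those with at least 50 UMIs with values per library. Receptors named were among those called. Some receptors are not reported here. Members, lists and tests were chosen with earlier results of these data known. The tests were checked on simulated data.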

Additional observations from a re-analysis of the deposited data

Results flagged for a closer look

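For 2 members, the female library lay on opposite sides of both male libraries in different lineages, and the difference between lineages was not tested. Female over male CPM of Cxcl10 was at least 2.743 in epithelial cells, and at most 0.4707 in fibroblasts and 0.4606 in endothelial cells. For Cxcl2 it was at least 3.062 in epithelial cells and at most 0.2905 in endothelial cells. Epithelial Cxcl2, at 9.30, 2.74 and 3.04 CPM, lay below free RNA in every library, and epithelial Cxcl10 lay above it. The part of free RNA in these values was not tested. When the totals omitted UMIs of tear products and mitochondria, neither epithelial value passed the 2-fold limit against both male libraries. The part of sex, core facility and day cannot be told apart.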

How the results depend on the processing

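Over 79 tested results and 15 alternative settings, 1066 of 1113 values kept their direction and side of the threshold, 41 lost the call and 6 reversed. Scaling by total UMIs without TMM shifted the median gene by -1.81 in epithelial, 1.44 in fibroblast, 1.22 in endothelial, 0.89 in mural, 0.81 in myeloid and 0.44 in lymphoid cells, and by -2.67 in acinar, 2.302 in duct, 1.495 in Ltf+ and 2.16 in MEC cells, on the log2 scale. Under it the members called higher became 3 in epithelial, 5 in endothelial, 4 in mural, 0 in acinar, 12 in duct, 11 in Ltf+ and 11 in MEC cells, and endothelial receptors became 2. The same scaling reversed Cx3cl1 (-0.59) and Ccl9 (-0.80) in epithelial cells and Ccl3 (-0.996), Ccl4 (-1.28) and Ccl28 (-0.81) in acinar cells. Ccl9 in epithelial cells was -0.069 with up to 2 times the expected doublets removed. One model over 6 lineages gave 3 mural members, no filter on low counts gave 10 lymphoid receptors, and the DESeq2 Wald test gave 0 mural receptors. At clustering resolution 0.5 the log2 ratio of Ccl19 in parenchymal-like fibroblasts went from 0.48 to -0.014, that of Cxcl12 in capillary-like cells to 1.86 and that of Ccl6 in monocyte-like cells to 1.11. Cxcl12 in capillary-like cells was 3.29 under both looser naming rules, which were added after seeing the data. Female higher pairs became 32 at a fold of 1.5, and 5 without tear-product and mitochondrial UMIs, where female lower pairs became 23.

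Fits without the library block, which pairs groups of the same library, ended 12 calls and gave 1 acinar member and 0 mural receptors.

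Leaving out each library in turn gave 5 to 5 members in epithelial, 9 to 10 in fibroblast, 2 to 5 in endothelial, 0 to 1 in mural, 17 to 18 in myeloid, 3 to 4 in lymphoid, 2 to 3 in acinar, 6 to 8 in duct, 4 to 8 in Ltf+ and 2 to 8 in MEC cells. Endothelial cells had 5 without the female library. Receptors ranged from 0 to 0 in epithelial, 1 to 3 in fibroblast, 1 to 1 in endothelial, 0 to 1 in mural, 7 to 10 in myeloid and 5 to 7 in lymphoid cells. The log2 ratio of Ccl1 in gamma-delta T-like cells ranged from 0.12 to 4.97, the higher without the female library. Causes of these changes were not tested. The 3 libraries and the free RNA limit what low members can show.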
